A study of Mus musculus with 12 samples.

Results

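Peaks of DNA methylation enrichment outside the promoter were examined for Slc2a9, Slc39a11, Arpp21, Pinx1, Slu7, Rab33b, Myo6, Unc119, Blvrb and Mark2. The study had singled them out by changes in both promoter methylation and expression, as it had Eif4g1 and Dlg3, which are not included here. Members were taken as every row of the 8 peak lists that carried one of the names examined, which gave 10 of 14146 genes named in the lists and 349 of 295704 rows. Of the 349 rows, 218 were classed in the lists as gene body, 127 as intergenic and 4 as promoter, meaning that the summit lay at most 2000 bp from the start of transcription. The 345 peaks outside promoters fell into 101 merged regions, a region being a stretch covered by overlapping peaks of any library.

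Hippocampal DNA of adult male C57BL/6J mice was profiled at postnatal day 70 by MeDIP-Seq, in which an antibody to 5-methylcytosine pulls down methylated fragments before sequencing. Ethanol mice were born to dams that drank a 10% ethanol solution by choice. The solution stayed available into the first days after birth. Stress mice spent 3 h daily apart from dam and litter between postnatal days 2 and 14, Ethanol + stress mice had both treatments, and Control mice had neither. Each of the 4 groups had 2 enriched libraries and 1 input library, and peaks of a library were called against the input of its group, so that effects of a treatment and of its group's input cannot be told apart. Pups chosen for separation had littermates that were not, so libraries of different groups may come from the same litters, and the labels do not tie libraries to litters. Whole hippocampus was used, and in such bulk tissue a change in methylation per cell and a change in the mix of cells cannot be told apart.

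In mammals most cytosine methylation sits at CpG dinucleotides, and neurons also carry methylated cytosines at other dinucleotides. CpG-rich promoters are usually unmethylated, whereas the bodies of transcribed genes and the stretches between genes are mostly methylated. MeDIP reports the enrichment of a fragment and not the methylation level of a base, so both the number of methylated cytosines and the coverage bear on whether a peak is called. A missing peak therefore says only that the caller's limit was not reached. Fold enrichment, the strength used below, is the ratio of a library's signal at the summit to the local background taken from its group's input. Both libraries of a group share that input.

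The shortest list held 22805 peaks (Ethanol library 2) and the longest 51747 (Stress library 2), and the lists differed in the number of peaks at the 10 genes. The genes had 47 and 30 peaks outside promoters in the Ethanol libraries, 53 and 56 in the Stress libraries, 51 and 44 in the Ethanol + stress libraries, and 36 and 28 in the Control libraries. Per 10000 such peaks of the library, these were 10.4 and 13.3 in Ethanol, 13.4 and 11.0 in Stress, 12.0 and 12.3 in Ethanol + stress, and 13.2 and 11.8 in Control. The groups overlapped on this scale. Median fold of the members' peaks ranged from 6.40 to 8.64 between libraries, against 6.97 to 8.22 for all peaks. Read totals are not given in the files, so the depth behind each value is unknown.

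Member peaks as a set lay far from start sites, through Slc39a11 and Arpp21. Of the 345 peaks, 225 (65.2%) were more than 100 kb from the start site of the gene named on them, against 35.5% of all 287410 rows outside promoters, and 18 (5.22%) were within 10 kb, against 12.6%. Of the peaks beyond 100 kb, Slc39a11 held 163 and Arpp21 held 55. Pinx1 had 5 of its 20 peaks that far and Myo6 2 of 3, while Slc2a9, Rab33b, Slu7, Blvrb and Unc119 had 0. Names in the lists go by the nearest start site and do not always match the annotated gene at the summit. Of the 127 peaks classed as intergenic, 52 lay inside a gene annotated in GENCODE M21. Of these, 6 lay in introns of the gene named on them, Slc2a9, and the others in a different gene. Of the 101 regions, 10 (9.90%) had a peak in all 8 libraries, against 9.74% of all 89797 pairs of a region outside a promoter and the gene named on it, and 31 (30.7%) had a peak in 1 library, against 38.8%.

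Sequences of 200 bp around the summits are shown from 7 regions, chosen among those with the most libraries and the highest median fold at the 5 genes with most peaks, because they show how different the sequences under these peaks were. They are read from the plus strand of the mm10 build, 5′ to 3′, with CpG dinucleotides in capitals.
Slu7 downstream region, chr11:43453210-43453409: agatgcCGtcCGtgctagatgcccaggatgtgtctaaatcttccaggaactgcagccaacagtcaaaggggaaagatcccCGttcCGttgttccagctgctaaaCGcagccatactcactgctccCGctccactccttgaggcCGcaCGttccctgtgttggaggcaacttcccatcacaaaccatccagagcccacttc
Pinx1 upstream region in the Xkr6 exon, chr14:63819599-63819798: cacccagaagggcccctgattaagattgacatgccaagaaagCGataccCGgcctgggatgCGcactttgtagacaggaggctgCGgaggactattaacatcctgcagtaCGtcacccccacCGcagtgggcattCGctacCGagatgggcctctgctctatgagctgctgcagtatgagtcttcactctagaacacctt
Slc2a9 upstream region, chr5:38489038-38489237: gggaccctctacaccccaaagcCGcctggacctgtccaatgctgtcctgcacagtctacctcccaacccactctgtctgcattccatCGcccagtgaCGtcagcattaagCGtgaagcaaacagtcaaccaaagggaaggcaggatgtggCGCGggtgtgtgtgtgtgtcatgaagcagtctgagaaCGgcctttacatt
Slc39a11 region a, intron, chr11:113288408-113288607: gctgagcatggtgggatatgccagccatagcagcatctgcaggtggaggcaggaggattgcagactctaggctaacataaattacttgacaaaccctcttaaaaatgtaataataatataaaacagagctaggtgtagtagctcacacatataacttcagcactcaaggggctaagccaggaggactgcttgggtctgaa
Slc39a11 region b, intron, chr11:113514334-113514533: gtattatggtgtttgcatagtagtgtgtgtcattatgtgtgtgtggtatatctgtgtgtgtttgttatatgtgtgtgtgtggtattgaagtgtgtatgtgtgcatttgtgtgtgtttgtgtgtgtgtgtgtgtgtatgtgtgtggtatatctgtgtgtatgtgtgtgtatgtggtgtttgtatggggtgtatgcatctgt
Slc2a9 intron region, chr5:38442413-38442612: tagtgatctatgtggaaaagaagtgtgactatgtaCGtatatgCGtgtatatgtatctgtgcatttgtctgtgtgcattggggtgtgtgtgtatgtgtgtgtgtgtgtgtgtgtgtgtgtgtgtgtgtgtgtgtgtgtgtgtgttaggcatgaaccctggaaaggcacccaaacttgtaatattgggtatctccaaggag
Arpp21 far-upstream region, chr9:112651265-112651464: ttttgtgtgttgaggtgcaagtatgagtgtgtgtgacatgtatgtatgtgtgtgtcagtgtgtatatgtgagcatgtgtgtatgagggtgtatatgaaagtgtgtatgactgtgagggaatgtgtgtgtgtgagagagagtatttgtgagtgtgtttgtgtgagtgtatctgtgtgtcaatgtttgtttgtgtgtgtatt

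The Slu7 downstream window and the Pinx1 upstream window held 8 CpGs each and the Slc2a9 upstream window held 7. The Slc2a9 intron window held 2, and the Arpp21 window and both Slc39a11 windows held 0. Those of Arpp21, of Slc39a11 region b and of the Slc2a9 intron region were rich in TG repeats on the strand shown. A window of 500 bp around each region's median summit was searched for an unbroken run of at least 6 units of TG or CA in either phase, which covers both strands. Such a run was found in 32 of the 101 member windows (31.7%), in 28.8% of 88553 windows of all regions outside promoters, and in 7.21% of all 500 bp windows of the chromosomes. Among regions with a peak in all 8 libraries it was found in 5 of 10 at the members, and in 34.0% of all such regions. Median CpG number per 500 bp window was 8 at the members, 7 over all regions and 3 over all chromosome windows. Arpp21 stood lowest with a median of 2, and 11 of its 21 windows had 2 CpGs or fewer.

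**Figure D1:**
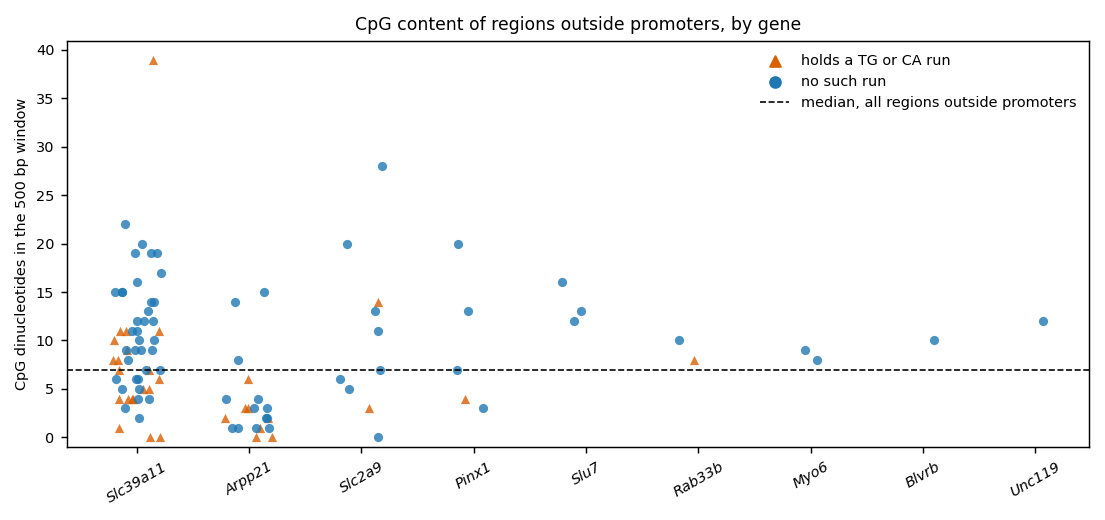
CpG dinucleotides in the 500 bp window around each of the 101 regions outside promoters (y axis), by gene (x axis). Triangles mark windows with a TG or CA run, circles those without, and the dashed line is the median of all regions outside promoters, 7. Most Arpp21 regions lie below the line.

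Slc39a11, which encodes a zinc transporter of the ZIP family, carried 217 of the 345 peaks (62.9%) in 56 regions. The gene runs from the start site at chr11:113565815 on the minus strand over 320961 bp, and 47 regions lay in its body, all with summits in introns. The other 9 regions lay 15.1 to 65.0 kb past the annotated gene end, 5 of them in introns of the non-coding gene 2610035D17Rik. Gene-body regions were spread along the gene with a median of 4393 bp and at most 29697 bp between neighbouring summits. Their density was 14.6 per 100 kb, against a median of 2.49 over 9833 genes of at least 10000 bp, which placed Slc39a11 at the 95.7th percentile. Within the longer GENCODE span of the gene, a further 11 peaks carried other names: 7 were named for Cog1, a subunit of a Golgi tethering complex, and 4 for Sstr2, a somatostatin receptor.

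Slc39a11 had 33 and 17 peaks in the Ethanol libraries, 31 and 38 in Stress, 34 and 25 in Ethanol + stress, and 21 and 18 in Control. Per 10000 peaks of the library these were 7.30 and 7.52 in Ethanol, 7.83 and 7.48 in Stress, 8.02 and 6.99 in Ethanol + stress, and 7.68 and 7.60 in Control. The shares of all libraries lay within a narrow range, with both Ethanol libraries below both Control libraries and the other treated groups overlapping Control. With equal numbers of peaks, Slc39a11 had 16 and 17 in Ethanol and 15 and 16 in Control, so this order was not kept. The mean share was 7.58 ± 0.451 in libraries of separated mice and 7.52 ± 0.161 in those of unseparated mice (SD, n = 4 each), a difference of 0.0557 with a two-sided exact permutation p of 0.857. The 4 ethanol-exposed libraries averaged 7.46 ± 0.433 and the 4 unexposed ones 7.64 ± 0.146 (difference -0.185, exact permutation p = 0.486). Adjusted over the 8069 genes with at least 8 peaks, p was 0.984 and 1.00.

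**Figure D2:**
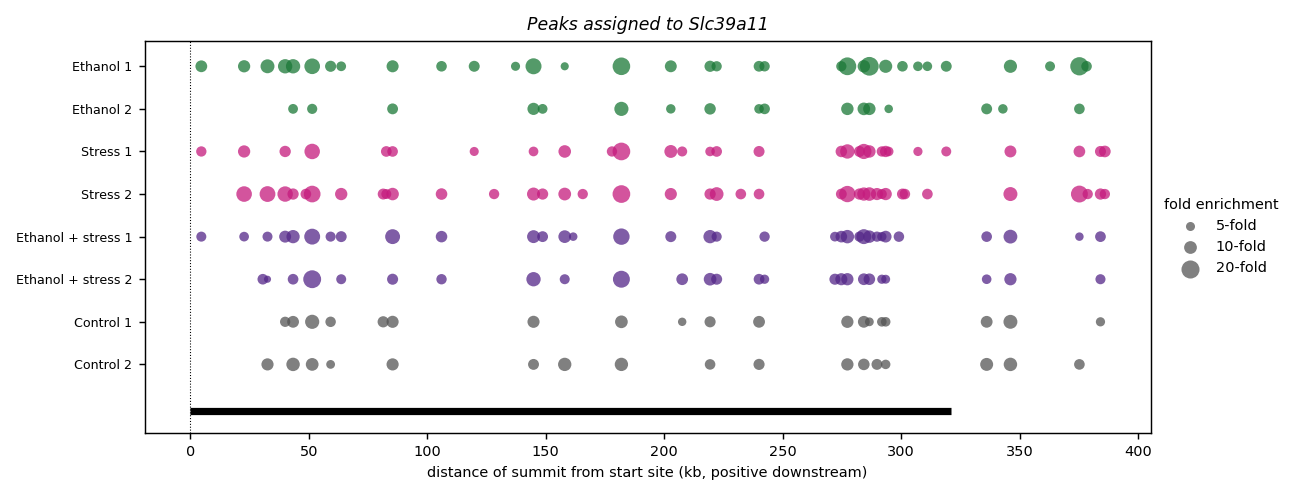
Peaks assigned to Slc39a11 in each of the 8 libraries (rows) by the distance of their region's summit from the start site in kb (x axis). Circle area scales with fold enrichment, the black bar is the gene and the dotted line its start. The 7 regions with a peak in all libraries form full columns, and 12 regions have one in 7 or 8.

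Presence at Slc39a11 varied from region to region. Of the 56 regions, 7 had a peak in all 8 libraries and 14 in 1 library. A shared region nearer the start than the others, at chr11:113513626-113515553, had folds of 15.0 and 6.34 in Ethanol, 14.7 and 17.1 in Stress, 15.5 and 19.6 in Ethanol + stress, and 12.3 and 9.96 in Control. Here Ethanol library 2 was lowest of all.

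A region is called gained below when both libraries of a treatment and neither Control library had a peak, and lost when the reverse held. Pairs of libraries are too few for any permutation test to pass 0.05, so the counts are set beside the share over all 89797 region and gene pairs. The treatments share the Control libraries. In Stress, 12 of the 101 member regions (11.9%) were gained, against 8.85% of all, and 2 (1.98%) were lost, against 0.869%. Ethanol + stress gained 7 (6.93%), against 5.54% of all, and lost 1 (0.990%), against 0.693%. Ethanol gained 2 (1.98%), against 2.80% of all, and lost 0, against 0.952%. With the strongest 22805 peaks of every library used in place of the full lists, the members had 65 regions and the series 53814 pairs. Stress then gained 5 member regions (7.69%, against 3.68% of all) and lost 7 (10.8%, against 3.51%). Ethanol + stress gained 2 (3.08%, against 2.69%) and lost 1 (1.54%, against 2.65%), and Ethanol gained 2 (3.08%, against 2.14%) and lost 1 (1.54%, against 3.03%). Of the 12 regions gained in Stress, 3 kept the call under this setting, as did 1 of the 7 gained in Ethanol + stress and 1 of the 2 gained in Ethanol.

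Slc39a11, which held 56 of the 101 member regions, supplied 7 of the 12 regions gained in Stress and 6 of the 7 gained in Ethanol + stress. It also supplied both regions gained in Ethanol and both lost in Stress. At chr11:113323100-113323792, in an intron 242358 bp from the start, all 4 ethanol-exposed libraries had a peak (6.59 and 6.97 in Ethanol, 6.55 and 5.27 in Ethanol + stress) and 0 of the 4 unexposed. This pattern was found at 1 of 101 member regions (0.990%) and at 0.0835% of all pairs. The call was not kept with equal numbers of peaks. The other Ethanol gain was at chr11:113362646-113363906, with folds of 8.70 and 5.47 in Ethanol. Stress had 10.2 and 9.06 there, Ethanol + stress library 1 had 7.44, and Control had no peak. With equal numbers of peaks this gain was kept in Ethanol but not in Stress. The region at chr11:113542701-113543913, gained in Stress, kept its call. Its folds were 9.20 in Ethanol library 1, 9.22 and 14.9 in Stress, and 5.75 in Ethanol + stress library 1. An intron region at chr11:113343208-113344135 had folds of 6.46 in Ethanol library 1, 6.99 and 11.6 in Stress, and 6.33 and 7.46 in Ethanol + stress, with no peak in either Control library. Likewise chr11:113290630-113291483 had folds of 6.46 in Ethanol library 1, 8.09 and 7.21 in Stress, and 8.32 and 9.0 in Ethanol + stress, and none in Control. Both thus had a peak in all 4 separated libraries and in a single unseparated one. The share of all pairs with this pattern is not given here, so it cannot be read as particular to these regions. With equal numbers of peaks the first kept neither call, and the second kept its gain in Ethanol + stress but not in Stress. In the other direction, chr11:113229362-113230403, past the gene end, had folds of 7.32 in Ethanol library 2, 6.93 and 5.67 in Ethanol + stress, and 8.57 and 10.3 in Control, with no peak in either Stress library. An intron region at chr11:113506348-113507335 had folds of 7.58 in Ethanol library 1, 6.22 in Ethanol + stress library 1, and 6.71 and 4.74 in Control. It too had no peak in Stress, and both losses were kept with equal numbers of peaks.

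Slc2a9 encodes a facilitative transporter of urate and hexoses. It had 22 peaks outside the promoter in 10 regions, 7 in the gene body and 3 upstream that the lists class as intergenic. All 22 summits lay in introns, because the GENCODE gene starts further upstream than either start site used in the lists. Another 6 peaks within that span were named for Drd5, a dopamine receptor gene. Slc2a9 had 2 and 2 peaks in Ethanol, 4 and 4 in Stress, 5 and 4 in Ethanol + stress, and 1 and 0 in Control. With the full lists, each separated library thus had more peaks than any unseparated one. With equal numbers of peaks, Slc2a9 had 2 and 2 in Ethanol and 1 and 0 in Control. Stress then had 3 and 4, and Ethanol + stress had 2 and 2, no more than Ethanol. The split by separation was thus not kept under this setting. Per 10000 peaks of the full lists, the libraries held 0.443 and 0.884 in Ethanol and 1.01 and 0.787 in Stress. Ethanol + stress held 1.18 and 1.12, and Control 0.366 and 0. On this scale Ethanol library 2 lay above Stress library 2. The mean share was 1.02 ± 0.173 in separated and 0.423 ± 0.363 in unseparated libraries (SD, n = 4 each, difference 0.601, two-sided exact permutation p = 0.0571, adjusted p = 0.612). On the number of peaks as called, the difference was 3.00 peaks with an exact permutation p of 0.029, the smallest that 4 against 4 libraries allow, and an adjusted p of 0.778. Over 12 alternative settings the adjusted p ranged from 0.575 to 0.871. Among all genes tested, 4.19% passed an unadjusted p of 0.05 for separation and 0 passed after adjustment. For ethanol exposure the Slc2a9 means were 0.907 ± 0.334 in exposed and 0.541 ± 0.449 in unexposed libraries (n = 4 each, exact permutation p = 0.229), with 2.33% of genes passing unadjusted and 0 after adjustment.

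**Figure D3:**
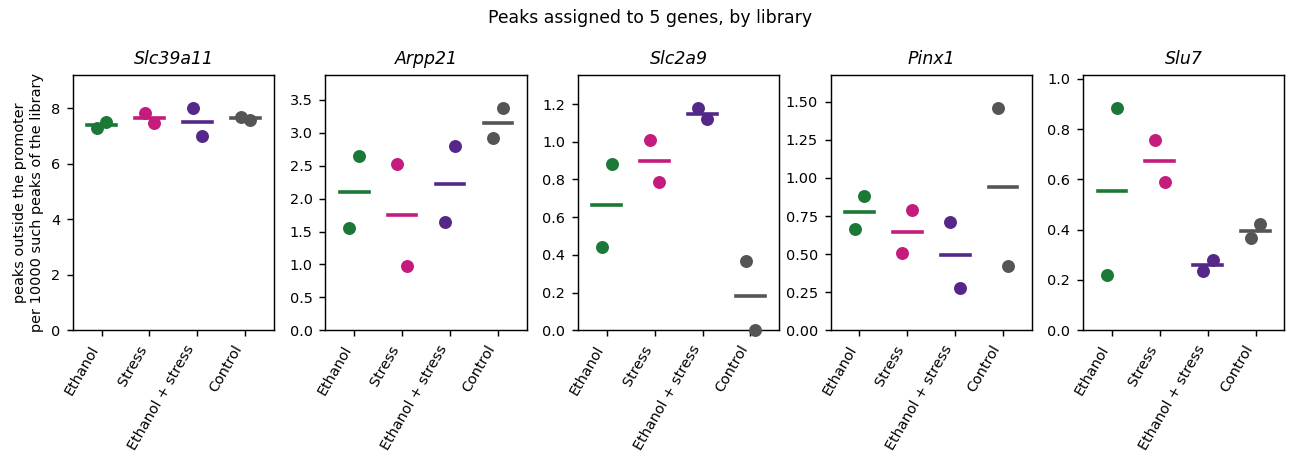
Peaks outside the promoter per 10000 such peaks of the library (y axis) for the 5 genes with at least 8 such peaks, by group (x axis). Each point is a library and each bar the mean of a group's 2 libraries. Slc39a11 stays between 6.99 and 8.02 in all libraries, and Slc2a9 is lowest in the Control libraries.

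An Slc2a9 region described here because its peak calls split by separation lay at chr5:38405708-38406990, in an intron 74290 bp from the start. Folds were 7.85 and 10.6 in Stress and 7.64 and 4.76 in Ethanol + stress, and no peak was called in the Ethanol or Control libraries. It was the only member region with a peak in all 4 separated and 0 of 4 unseparated libraries, a pattern found at 0.401% of all pairs. The 500 bp window held 28 CpGs, 1283 bp of merged region were marked as repeat over their whole length (100%), and how reads from other copies of the repeat bear on the folds was not tested. With equal numbers of peaks it stayed gained in Stress but not in Ethanol + stress. Upstream, at chr5:38488730-38489743 and 5753 bp from the start, folds were 11.9 in Ethanol library 1, 8.80 and 15.8 in Stress and 3.95 in Ethanol + stress library 1. This region was gained in Stress under both settings. The TG-rich intron region whose sequence is shown above, at chr5:38442125-38443440, had folds of 9.86 and 5.82 in Ethanol, 9.24 in Stress library 2, 8.65 and 7.71 in Ethanol + stress, and 9.25 in Control library 1. Every group had a peak there.

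Arpp21 encodes an RNA-binding phosphoprotein enriched in neurons. Its 61 peaks formed 21 regions, of which 15 lay upstream, 13 of them by more than 200 kb. Distances in the lists are from 2 start sites, chr9:112234841 for upstream peaks and chr9:112185949 for downstream ones. Only 4 regions, with 5 peaks, were in the gene body, and 47 peaks had no annotated gene at the summit. Repeats marked in the reference made up a median of 65.0% of an Arpp21 region, against 39.2% over all regions outside promoters. Arpp21 had 7 and 6 peaks in Ethanol, 10 and 5 in Stress, 7 and 10 in Ethanol + stress, and 8 in each Control library. Per 10000 peaks these were 1.55 and 2.65 in Ethanol, 2.52 and 0.984 in Stress, 1.65 and 2.80 in Ethanol + stress, and 2.92 and 3.38 in Control. Both Control libraries were thus above all treated ones on this scale. With equal numbers of peaks, Arpp21 had 3 and 6 in Ethanol, 5 and 2 in Stress, 2 and 6 in Ethanol + stress, and 6 and 7 in Control. Ethanol library 2 and Ethanol + stress library 2 then equalled Control library 1, so this split was not kept. The separated libraries averaged 1.99 ± 0.830 and the unseparated 2.63 ± 0.778 (n = 4 each, exact permutation p = 0.257). The means were 2.16 ± 0.654 in ethanol-exposed and 2.45 ± 1.04 in unexposed libraries (n = 4 each, exact permutation p = 0.686). Distances reached 727519 bp upstream, where chr9:112962086-112962663 had folds of 7.45 in Ethanol library 2, 3.88 in Ethanol + stress library 2 and 8.94 in Control library 1.

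The Arpp21 region in all 8 libraries lay 416524 bp upstream at chr9:112650958-112651838, with folds of 7.29 and 5.90 in Ethanol, 6.99 and 7.38 in Stress, 10.6 and 9.81 in Ethanol + stress, and 6.89 and 12.0 in Control. Control library 2 was highest and Control library 1 among the lowest, and both Ethanol + stress libraries were above all Ethanol and Stress libraries. At chr9:112445266-112446178, in an intron of 4933411E02Rik, folds were 14.4 in Ethanol library 1, 10.6 and 10.8 in Stress, 11.3 and 10.3 in Ethanol + stress, and 7.31 and 6.56 in Control. The treated libraries with a peak were all above both Control libraries there. The only Arpp21 region lost in a treatment was chr9:112937484-112938226, with folds of 8.13 in Ethanol library 1, 7.89 and 9.49 in Stress, none in Ethanol + stress, and 6.48 and 9.37 in Control, and this call was not kept with equal numbers of peaks.

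**Figure D4:**
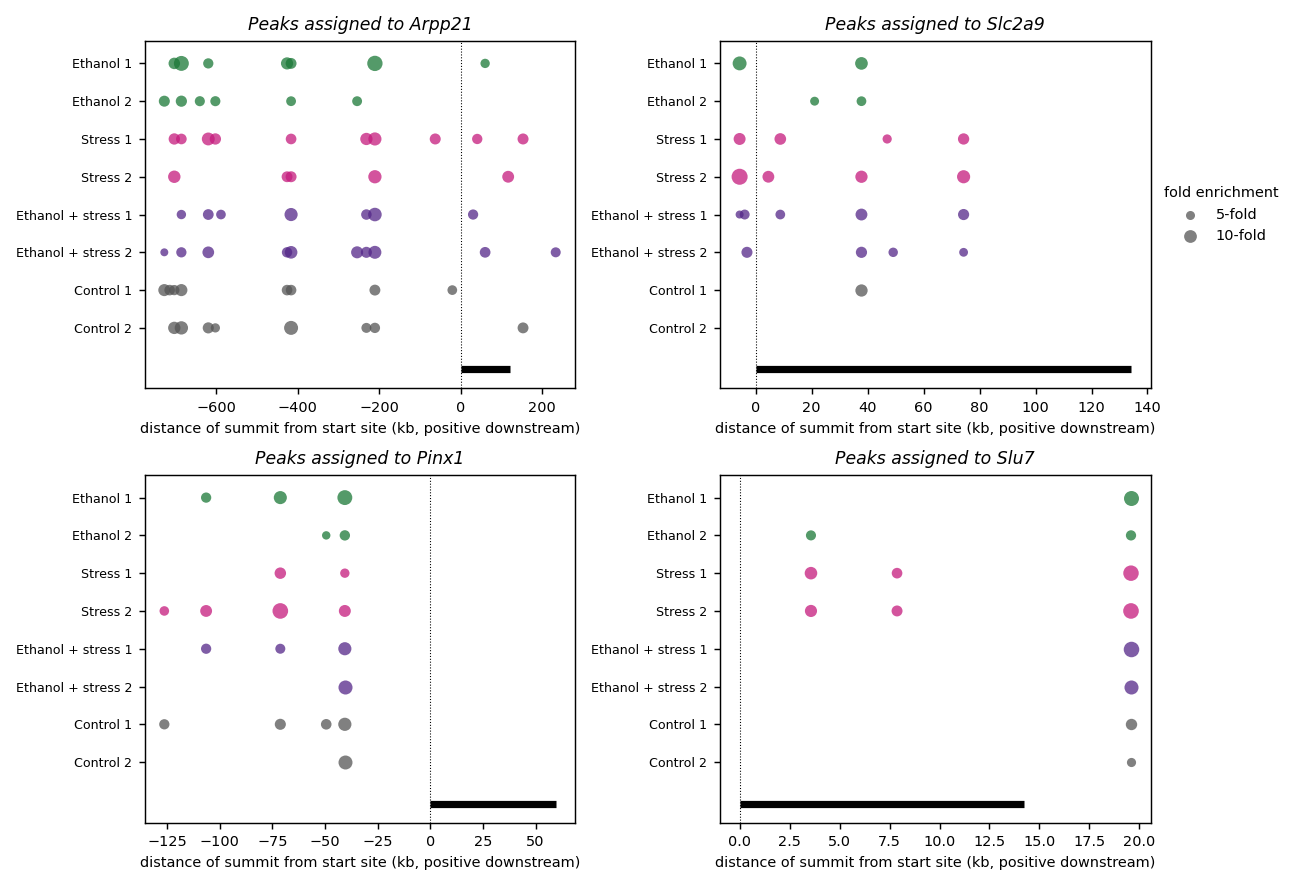
Peaks assigned to Arpp21, Slc2a9, Pinx1 and Slu7 in each library (rows) by the distance of their region's summit from the start site in kb (x axis, positive downstream). Circle area scales with fold enrichment, the black bar is the longest span given for the gene, and the dotted line the start site. Arpp21 and Slc2a9 have 2 start sites each in the lists. Their upstream and downstream peaks are placed by different ones, so these panels do not form a single scale. Arpp21 peaks lie mostly far upstream, and all Pinx1 peaks lie before the start.

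Pinx1, a telomerase inhibitor, had 20 peaks in 5 regions, all upstream and all inside the neighbouring gene Xkr6, a member of the XK-related family. Pinx1 itself had 0 peaks in its 59548 bp body. Peaks numbered 3 and 2 in Ethanol, 2 and 4 in Stress, 3 and 1 in Ethanol + stress, and 4 and 1 in Control, with overlapping groups. Per 10000 peaks, the separated libraries averaged 0.570 ± 0.227 and the unseparated 0.858 ± 0.445 (n = 4 each, exact permutation p = 0.314). The shared region at chr14:63819252-63820166, at a coding exon of Xkr6 and 40612 bp upstream of Pinx1, had folds of 13.6 and 6.61 in Ethanol, 5.39 and 8.79 in Stress, 10.6 and 12.1 in Ethanol + stress, and 10.7 and 12.0 in Control. Both Stress libraries were below both Control libraries. An intron region at chr14:63788295-63789427 was strongest in Stress library 2 with a fold of 15.0, and had 10.5 in Ethanol library 1, 8.09 in Stress library 1, 6.16 in Ethanol + stress library 1 and 7.54 in Control library 1.

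Slu7, a splicing factor of the second catalytic step, had 13 peaks in 3 regions. A region downstream of the gene end, at chr11:43453004-43453719 and 19580 bp from the start, had a peak in every library. Its folds were 13.8 and 6.46 in Ethanol, 14.7 and 15.0 in Stress, 14.8 and 12.1 in Ethanol + stress, and 7.96 and 5.15 in Control. The Stress and Ethanol + stress libraries were all above both Control libraries. Inside the gene, an intron region at chr11:43437068-43437683 had folds of 6.25 in Ethanol library 2 and 9.70 and 9.06 in Stress. A second intron region at chr11:43441331-43441870 had 6.96 and 7.38 in Stress and no peak elsewhere. Both intron regions were gained in Stress, and neither call was kept with equal numbers of peaks. Slu7 peaks per 10000 averaged 0.466 ± 0.250 in separated and 0.473 ± 0.287 in unseparated libraries (n = 4 each, exact permutation p = 1.00).

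The remaining genes had few peaks. Rab33b, a Golgi GTPase with a part in autophagy, had 6 peaks, all downstream of its end. Its region at chr3:51501306-51501987 had folds of 5.18 in Stress library 1, 3.86 and 8.89 in Ethanol + stress, and 6.89 in Control library 1, while chr3:51507169-51507999 had 5.63 and 6.00 in Stress only. This last region was gained in Stress, but not with equal numbers of peaks. Myo6, an actin motor that moves toward the minus end, had 3 peaks in 2 gene-body regions: 8.04 in Ethanol library 2 and 6.14 in Ethanol + stress library 2 at chr9:80269172-80270102, and 8.43 in Ethanol + stress library 2 at chr9:80199636-80200115. Unc119, a lipid-binding chaperone, was named on 2 peaks in an intron of the neighbouring gene Foxn1, of 5.65 in Ethanol library 1 and 6.95 in Stress library 2. Blvrb, a reductase of heme breakdown, had 1 intron peak, of 6.08 in Stress library 1. Mark2, a kinase that acts on microtubule-associated proteins, had 0 peaks outside its promoter and a promoter peak of 7.51 in Ethanol + stress library 2 and of 8.19 in Control library 2. The 2 other promoter peaks at the 10 genes were at Slc2a9, at 8.54 in Ethanol library 1 and 9.35 in Ethanol + stress library 2.

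Fold enrichment was tested with limma at the regions with a peak in all 8 libraries, 8901 in the series and 10 at the members, on a log2 scale with each library centred on its median. Before centring, median folds over these regions were 14.4 and 8.74 in Ethanol, 12.0 and 15.4 in Stress and 12.7 and 11.2 in Ethanol + stress, against 10.7 and 10.6 in Control. Only the Pinx1 region in the Xkr6 exon passed an adjusted p of 0.05, and only in Stress, where the log2 difference to Control was -1.07 (SE 0.30, 95% interval -1.68 to -0.47, adjusted p = 0.0339). Over all 8901 regions 3.58% passed in Stress, 2.29% in Ethanol + stress and 1.17% in Ethanol. Without centring the Pinx1 difference was -0.72 (limma adjusted p = 0.447). Leaving out Stress library 1 gave -0.90 (adjusted p = 0.215), Stress library 2 -1.24 (0.0976), Control library 1 -1.16 (0.125) and Control library 2 -0.98 (0.220). The call held in 5 of 12 alternatives.

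At the Slu7 downstream region the log2 difference was 0.86 in Stress (SE 0.30, 95% interval 0.24 to 1.47, limma adjusted p = 0.103), 0.90 in Ethanol + stress (SE 0.30, 0.28 to 1.51, adjusted p = 0.102) and 0.48 in Ethanol (SE 0.30, -0.14 to 1.09, adjusted p = 0.557). None of these passed the threshold. The Arpp21 region gave -0.70 in Stress (95% interval -1.32 to -0.07, adjusted p = 0.212).

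**Figure D5:**
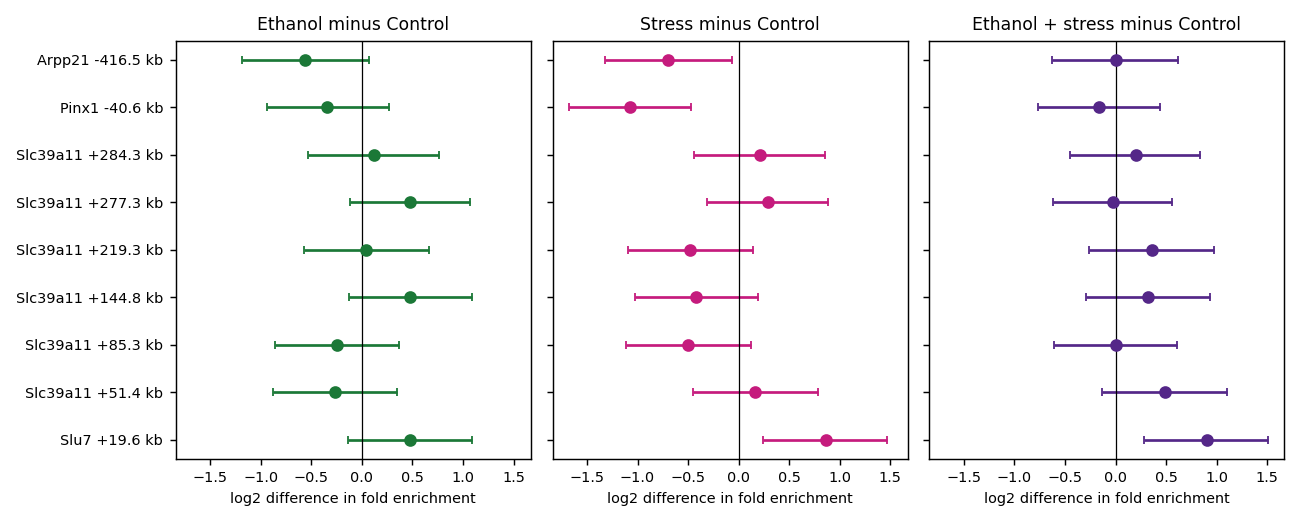
Log2 difference in fold enrichment (x axis) at 9 of the 10 member regions with a peak in all 8 libraries (y axis, by gene and distance from its start in kb), for each treatment minus Control. Points are limma estimates and bars 95% intervals, n = 2 libraries a group. The Pinx1 region in Stress, at -1.07, is the only estimate shown past an adjusted p of 0.05.

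Other genes of the members' families or pathways, 84 in all, had peaks outside promoters in 50 cases. Slc39a10, another zinc transporter, had 114 peaks over the 8 libraries, Myo18b, an unconventional myosin, had 87, and Pot1a, a telomere-binding protein of shelterin, had 68. Their 331 regions included 28 gained in Stress (8.46%, against 8.85% of all pairs), 17 in Ethanol + stress (5.14%, against 5.54%) and 8 in Ethanol (2.42%, against 2.80%). Lost were 4 in Stress (1.21%, against 0.869%), 2 in Ethanol + stress (0.604%, against 0.693%) and 3 in Ethanol (0.906%, against 0.952%). At an unadjusted permutation p under 0.05, 4.19% of all genes passed for separation and 2.33% for ethanol exposure. Among 31 family genes with at least 8 peaks, Slc2a7 and Terf2ip were higher and Myo1h lower in separated libraries at this limit. Slc2a10 was lower in ethanol-exposed ones. None passed after adjustment over all genes, and these 4 are named after their values were seen.

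For 5 members, the genes with the most similar number of peaks per library were sought among 6923 others with at least 10 peaks, by Pearson correlation of peaks per 10000 over the 8 libraries, whose lists differ in length. Dcdc2a (r = 0.946) and Gm765 (0.901) were closest to Slc39a11, and Cdh7 (0.958) and Gsta3 (0.943) to Slc2a9. Arpp21 was closest to Dusp27 (0.966) and Stk3 (0.957), Pinx1 to Arhgap18 (0.951) and Creb5 (0.941), and Slu7 to Clec16a (0.961) and Blcap (0.929). With this many genes and 8 libraries, such values describe a ranking only.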

How the data were processed

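Per the labels and the study's methods, MeDIP-Seq reads of each enriched library were aligned by the authors to mm10 with HISAT2 2.1.0 (submitters' processing notes). Peaks were called per library with MACS against the group's input, from another mouse, and assigned to the nearest RefSeq gene. The lists deposited by the authors hold fold enrichment as a ratio, the q-value as −log10 q (at least 5), and a summit tag value, a rescaled score that was not used for any result.

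Peaks were merged across libraries at an overlap of at least 1 bp (merging checked against bedtools 2.31.1). Promoters were ± 2000 bp. Sequence came from GRCm38 (mm10) and gene features from GENCODE M21. Fold enrichment was tested with limma 3.58.1 in R 4.3.3, each library centred on its median, all groups sharing the spread, with Benjamini-Hochberg adjustment over all regions. Peaks per gene, per 10000 of the library, were compared by two-sided exact permutation (Python 3.11.15, numpy 2.4.6, pandas 2.3.3, scipy 1.17.1) over genes with at least 8 peaks. Tests were run on simulated data first. All 10 members are named, family genes by most peaks, and the 2 most similar genes per member with at least 10 peaks. The members and lists were chosen with earlier results of these data known. Alternatives were equal numbers of peaks (22805), −log10 q of at least 10, a 200 bp overlap, promoter windows of 1000 and 5000 bp, other scalings, a replicate block and leaving out each library. Replicates are separate libraries, and p-values measure the spread between them. Input libraries had no peak list and were not analysed here. A region of Slc39a11 is not reported here on its own.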

Additional observations from a re-analysis of the deposited data

Results flagged for a closer look

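At 4 of the 10 member regions with a peak in all 8 libraries, the effect of a treatment had opposite signs in the presence and absence of the other, in every pairing of libraries after centring. How many of all 8901 regions meet this sign rule is not given here, so the count cannot be read as particular to the members. Folds at the Pinx1 region in the Xkr6 exon differed by 0.91 for Ethanol + stress minus Stress and by -0.34 for Ethanol minus Control (log2). The Arpp21 region 416524 bp upstream gave 0.55 for Ethanol + stress minus Ethanol and -0.70 for Stress minus Control. An Slc39a11 intron region starting at chr11:113288028 gave -0.51 for Ethanol + stress minus Ethanol and 0.29 for Stress minus Control, and for ethanol -0.32 for Ethanol + stress minus Stress and 0.48 for Ethanol minus Control. The Slc39a11 region starting at chr11:113479978 gave 0.50 for Ethanol + stress minus Stress and -0.25 for Ethanol minus Control. The interaction itself, tested with limma, gave 1.25 (SE 0.42, adjusted p = 0.117) at Pinx1, 1.25 (SE 0.44, adjusted p = 0.130) at Arpp21, and -0.80 (adjusted p = 0.341) and 0.75 (adjusted p = 0.414) at Slc39a11. None passed, against 173 of 8901 regions in the series.

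The promoter peaks of Slc2a9 lie outside the comparisons above. They reached 9.35-fold in Ethanol + stress library 2 and 8.54-fold in Ethanol library 1, with none called in the other 6 libraries, Control included. These peaks lay at chr5:38484897-38485518. The study reported lower Slc2a9 promoter methylation in Ethanol than in Control, at a different stretch that does not overlap them.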

How the results depend on the processing

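With equal numbers of peaks, regions gained at the members numbered 5 in Stress and 2 in Ethanol + stress (12 and 7 with full lists), and regions lost 7 in Stress and 1 in Ethanol (2 and 0 with full lists). Leaving out each library in turn, which makes the rule easier to meet where the library is a Control or of that treatment, gained regions ranged from 12 to 27 in Stress, 7 to 20 in Ethanol + stress and 2 to 20 in Ethanol, and lost regions from 2 to 6 in Stress, 1 to 6 in Ethanol + stress and 0 to 8 in Ethanol. Regions of the series with changed fold enrichment numbered 319 in Stress, 204 in Ethanol + stress and 104 in Ethanol. Without centring they numbered 148 in Stress, 6 in Ethanol + stress and 7 in Ethanol, and with quantile normalization 208 in Ethanol. Leaving out each library gave 19 to 360 in Stress, 27 to 224 in Ethanol + stress and 9 to 113 in Ethanol, where a lone library was assumed to vary like the other groups. Genes with changed peaks stayed at 0 in all alternatives, and with 4 against 3 libraries no p under 0.05 is possible. With the replicate number as a block, 268 regions passed in Stress, 174 in Ethanol + stress and 86 in Ethanol, and Pinx1 in Stress kept its call (adjusted p = 0.0433). Deviations of same-numbered libraries correlated between -0.0973 and 0.14, and 1 of 6 group pairs was above 0.1. Whether libraries share litters or batches cannot be decided from these correlations, and the labels do not pair the libraries. The Pinx1 difference was -1.02 with quantile normalization (limma adjusted p = 0.0522) and -1.01 with regions missing in some libraries included (0.0867). The cause of these changes was not tested. Read depth is unknown, and its part in missing peaks was not tested.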
